A study of Columba livia with 12 samples.

Results

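The 6 troponin genes measured in pigeon breast muscle are TNNI1 and TNNI2 (troponin I), TNNT2 and TNNT3 (troponin T) and TNNC1 and TNNC2 (troponin C). They were found by matching the NCBI gene IDs of the deposited mRNA table to RefSeq pigeon symbols, and all 6 were among its 12918 rows. The libraries were made from total RNA of frozen breast muscle of White-King pigeons that were 1 day old (1D), 14 days old (14D) or 28 days old (28D), with 3 libraries per age. A 2-year group of 3 samples is also described in the labels and was not analysed here, because 3 value columns carry names that match no sample label. No bird was treated, and all ages share the breed and the tissue. The labels give neither sex nor housing, and do not say whether each library came from its own bird, so p-values measure the spread between libraries, which may be technical.

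Troponin is the calcium switch of the thin filament of striated muscle. Troponin C binds calcium, troponin I holds back the interaction of actin with myosin, and troponin T fastens the complex to tropomyosin. In mammals and chicken each subunit has a fast skeletal form (TNNI2, TNNT3, TNNC2). TNNC1 is shared by slow skeletal and cardiac muscle, while TNNI1 is the slow skeletal troponin I and TNNT2 the cardiac troponin T. Developing skeletal muscle is known to carry slow and cardiac forms for a time. TNNC1 lacks a working calcium site that the fast form TNNC2 uses. The pigeon breast muscle is a flight muscle built of fast fibres.

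Levels are TPM as the authors deposited it (a share of all transcripts that is corrected for transcript length). Comparisons between genes rest on that correction and on how shared reads were assigned, and neither method is given. The mRNA rows of a library summed to between 737968 and 844829 TPM, and mRNA and lncRNA rows together to between 991186 and 993735 TPM. The lncRNA rows took between 14.98% and 15.9% of a 1D library and between 20.3% and 25.5% of a 14D or 28D library. The part left to mRNA rows was thus smaller at the older ages. TPM keeps no read count, so depth and counting error are unknown. All 6 troponin genes passed the low-value filter, at least 1 TPM in at least 3 libraries, as did 11951 of the 12918 mRNA rows. Tests were limma fits on log2(TPM + 1) over the 9 libraries, with p-values adjusted over all 11951 genes (Benjamini-Hochberg) and a threshold of 0.05. Over the 11951 genes the median log2 change was -0.31 for 14D against 1D, -0.068 for 28D against 14D and -0.38 for 28D against 1D. After each library was rescaled by its median ratio these medians were 0.012, -0.018 and -0.013.

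In breast muscle TNNI2 was far above TNNI1 and TNNT3 far above the cardiac form TNNT2 at all 3 ages, whereas the larger part of troponin C was the fast gene TNNC2 at 1D and 14D and the slow and cardiac gene TNNC1 at 28D. The slow troponin T gene TNNT1 was looked for, but no tested mRNA row carried its symbol, so its level is not known here. TNNI1 and TNNT2 were already low beside their fast partners at 1D, where their means placed them 750th and 1632nd among all mRNA rows, and averaged 2.40 and 1.81 TPM at 28D. TNNC1 was 7.90 times higher at 28D than at 1D, and TNNC2 was 2.31 times lower (ratios of means). In bulk muscle, fewer fibres that carry a transcript and less of it per fibre cannot be told apart. At 1D the mean levels ran in the order TNNC2, TNNI2, TNNT3, TNNC1, TNNI1 and TNNT2. Among neighbours in that order, TNNI2 and TNNT3 overlapped between libraries and the others did not. At 14D the order was TNNC2, TNNI2, TNNT3, TNNC1, TNNT2 and TNNI1, and neighbours overlapped among the first 3 of these genes but not after them. At 28D TNNI2 came first and TNNC1 came second, with overlapping libraries, followed by TNNT3, TNNC2, TNNI1 and TNNT2. TNNI1 and TNNT2 overlapped at 28D.

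The slow troponin I gene TNNI1 (gene ID 102085575) had 131, 233 and 105 TPM in the 1D libraries, 4.31, 3.69 and 5.01 TPM at 14D and 1.61, 3.35 and 2.23 TPM at 28D. Every 14D library lay below every 1D library and every 28D library below every 14D library, and replicate 2 was the highest at 1D. Means at 1D, 14D and 28D were 156 ± 67.7, 4.33 ± 0.662 and 2.40 ± 0.882 TPM (SD, n = 3 each). TNNI1 fell at 14D relative to 1D (log2 change -4.80, SE 0.29, limma adjusted p = 2.17e-06), the 14th lowest change of the 11951 tested genes. It fell at 28D relative to 1D (log2 change -5.48, SE 0.29, limma adjusted p = 4.78e-07), the 10th lowest. The step from 14D to 28D did not pass (log2 change -0.68, 95% interval -1.31 to -0.038, limma adjusted p = 0.285). At these levels near 2 TPM the pseudocount of 1 shrinks the change.

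The fast troponin I gene TNNI2 (gene ID 102090563) had 5566, 5181 and 6952 TPM in the 1D libraries, 7574, 6086 and 6849 TPM at 14D and 6795, 6899 and 8187 TPM at 28D. The ages overlapped in each pair. Means at 1D, 14D and 28D were 5900.0 ± 932, 6836 ± 744 and 7294 ± 775 TPM (SD, n = 3 each), which placed TNNI2 9th or 10th by mean level among all mRNA rows at each age. No comparison passed. The log2 change was 0.22 at 14D against 1D (95% interval -0.16 to 0.60, limma adjusted p = 0.305), 0.094 at 28D against 14D (-0.28 to 0.47, adjusted p = 0.843) and 0.31 at 28D against 1D (-0.066 to 0.69, adjusted p = 0.137). After median-ratio rescaling TNNI2 was called higher at 14D than at 1D (0.58, limma adjusted p = 0.0391) and higher at 28D than at 1D (0.73, limma adjusted p = 0.0123), and after quantile normalization its change at 28D against 1D was -0.22 (limma adjusted p = 0.295), so no direction is given for it.

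Among the troponin T genes, the cardiac form TNNT2 (gene ID 102085393) had 68.0, 87.3 and 64.8 TPM in the 1D libraries, 9.55, 5.19 and 13.2 TPM at 14D and 1.00, 3.23 and 1.22 TPM at 28D. The 3 ages did not overlap in any pair, and the libraries differed from each other most, relative to their mean, at 28D (coefficient of variation 67.6%). Means at 1D, 14D and 28D were 73.4 ± 12.2, 9.31 ± 4.002 and 1.81 ± 1.23 TPM (SD, n = 3 each). TNNT2 fell at 14D relative to 1D (log2 change -2.92, SE 0.34, limma adjusted p = 7.05e-05) and at 28D relative to 1D (-4.79, SE 0.34, limma adjusted p = 2.34e-06). It was also the troponin gene that passed between 28D and 14D, where it fell (log2 change -1.88, SE 0.34, limma adjusted p = 0.0281), the 18th lowest change of all tested genes. That last call was lost under several settings, among them a pseudocount of 5 (-1.04, adjusted p = 0.057), quantile normalization (-1.80, adjusted p = 0.0585) and a fit of these 2 ages alone (-1.88, adjusted p = 0.0956), all by limma. It was lost as well without 14D replicate 1 (limma adjusted p = 0.0516), without 14D replicate 3 (adjusted p = 0.0903), without 28D replicate 1 (adjusted p = 0.0907) and without 28D replicate 3 (adjusted p = 0.105).

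The fast troponin T gene TNNT3 (gene ID 102091177) had 4085, 4991 and 5524 TPM in the 1D libraries, 6444, 5799 and 4879 TPM at 14D and 5654, 5166 and 5230.0 TPM at 28D. The ages overlapped in each pair, and the spread was smallest at 28D. Means at 1D, 14D and 28D were 4866 ± 727, 5707 ± 787 and 5350.2 ± 265 TPM (SD, n = 3 each). The log2 change was 0.23 at 14D against 1D (95% interval -0.14 to 0.61, limma adjusted p = 0.27), -0.085 at 28D against 14D (-0.46 to 0.29, adjusted p = 0.856) and 0.15 at 28D against 1D (-0.23 to 0.52, adjusted p = 0.472). After median-ratio rescaling it was called higher at 14D than at 1D (0.60, limma adjusted p = 0.0232) and at 28D than at 1D (0.57, limma adjusted p = 0.0247), while quantile normalization gave -0.044 at 28D against 1D (limma adjusted p = 0.871). RefSeq annotates 46 transcripts of TNNT3 and 3 of TNNT2, and 1 for each of the other 4 genes. Troponin T transcripts are known to be alternatively spliced, and the gene-level TPM does not resolve the splice forms.

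The slow and cardiac troponin C gene TNNC1 (gene ID 102084233) had 1331, 565 and 570.2 TPM in the 1D libraries, 2166, 4590.2 and 4641 TPM at 14D and 5917, 6920.1 and 6646 TPM at 28D. No library of an older age overlapped a younger one, and replicate 1 stood apart at both early ages, highest at 1D and lowest at 14D. Means at 1D, 14D and 28D were 822 ± 441, 3799 ± 1414 and 6495 ± 519 TPM (SD, n = 3 each). TNNC1 rose at 14D relative to 1D (log2 change 2.25, SE 0.36, limma adjusted p = 0.000553), the 93rd highest change of all tested genes. It rose at 28D relative to 1D (3.10, SE 0.36, limma adjusted p = 5.03e-05), the 49th highest. Between 28D and 14D the log2 change was 0.85 (95% interval 0.044 to 1.66) and did not pass (limma adjusted p = 0.288). By mean level it was 149th among all mRNA rows at 1D, 18th at 14D and 13th at 28D.

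The fast troponin C gene TNNC2 (gene ID 102088856) had 8924, 10310.0 and 9160 TPM in the 1D libraries, 8762, 5223 and 6765 TPM at 14D and 4893, 3782 and 3619 TPM at 28D. Every older library lay below every younger one, although at 14D replicate 1 was close to the lowest 1D library. Means at 1D, 14D and 28D were 9464 ± 742, 6916 ± 1774 and 4098 ± 693 TPM (SD, n = 3 each). TNNC2 fell at 28D relative to 1D (log2 change -1.22, SE 0.21, limma adjusted p = 0.000571), a change of -0.84 relative to the median of all genes. After quantile normalization the log2 change was -1.82 (limma adjusted p = 0.000355), and after median-ratio rescaling it was -0.80 (limma adjusted p = 0.0176). The separate steps did not pass, with -0.48 at 14D against 1D (95% interval -0.94 to -0.020, limma adjusted p = 0.0744) and -0.74 at 28D against 14D (-1.20 to -0.27, limma adjusted p = 0.114). The first step passed without 14D replicate 1 (-0.67, limma adjusted p = 0.0198) and after quantile normalization (-0.99, limma adjusted p = 0.0132). After median-ratio rescaling that step was only -0.12 (95% interval -0.66 to 0.42, limma adjusted p = 0.71), so its size depends on the scaling. By mean level TNNC2 was 4th among all mRNA rows at 1D, 9th at 14D and 22nd at 28D.

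**Figure D1:**
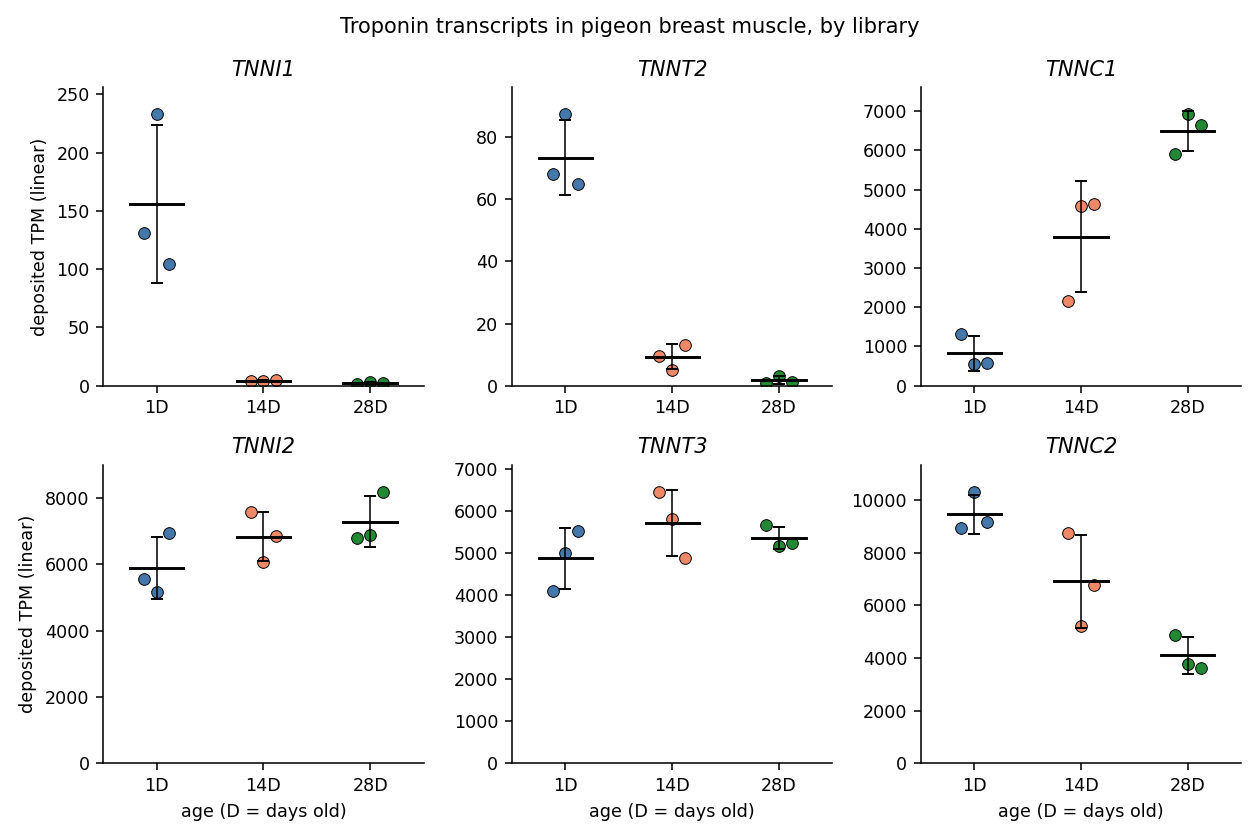
Deposited TPM (linear axes starting at 0) of each troponin gene in the 3 libraries of each age; points are libraries in replicate order, the horizontal line is the mean and the error bar the SD (n = 3). TNNI1 and TNNT2 drop below 14 TPM from 14D on, TNNC1 climbs to between 5917 and 6920.1 TPM at 28D while TNNC2 lies between 3619 and 4893 TPM there, and the ages overlap for TNNI2 and TNNT3.

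The share of a gene within its subunit pair does not change when a library is multiplied by a single factor. Quantile normalization is not such a scaling, and the shares were not computed after it. TNNC1 made up 13.0%, 5.19% and 5.86% of the summed troponin C TPM in the 1D libraries, 19.8%, 46.8% and 40.7% at 14D and 54.7%, 64.7% and 64.7% at 28D. TNNC2 was therefore the larger part in each library of 1D and 14D, and TNNC1 in each library of 28D. Its mean share at 1D, 14D and 28D was 8.01% ± 4.32, 35.8% ± 14.1 and 61.4% ± 5.75 (SD, n = 3 each). The summed troponin C level stayed within a narrow range, with means at the successive ages of 10286 ± 573, 10715 ± 817 and 10593 ± 288 TPM (SD, n = 3 each) and overlapping libraries. In deposited TPM the gain in TNNC1 and the drop in TNNC2 thus came to similar amounts. Unlike the shares, this sum changes when a library is multiplied by a factor. For 28D against 1D the log2 changes of TNNC1 and TNNC2 were 3.10 and -1.22 as deposited. After median-ratio rescaling they were 3.52 and -0.80, and the sum was not computed under that scaling. Since the shares and sums combine members, they are given with no test.

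Within the other pairs the slow or cardiac gene was a small part from the start. TNNI1 made up 2.30%, 4.30% and 1.48% of the summed TNNI1 and TNNI2 TPM in the 1D libraries, between 0.0569% and 0.0731% at 14D and between 0.0238% and 0.0486% at 28D. TNNT2 made up 1.64%, 1.72% and 1.16% of the summed TNNT2 and TNNT3 TPM at 1D, between 0.0894% and 0.269% at 14D and between 0.0177% and 0.0624% at 28D. These sums leave out TNNI3, which stood in another table, and TNNT1. Both shares were lower in each 14D and 28D library than in any 1D library. The share of TNNC1 in its pair was above both of them in every library. The 6 genes together held between 2.39% and 2.68% of the mRNA TPM at 1D, between 2.76% and 3.38% at 14D and between 2.91% and 3.11% at 28D.

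**Figure D2:**
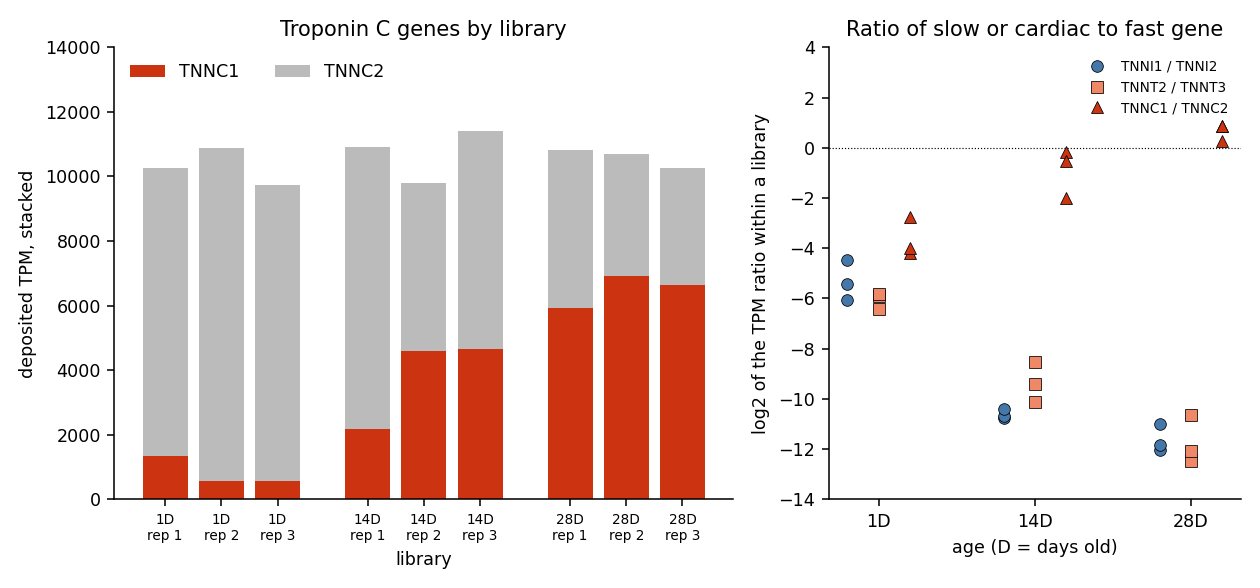
Left, deposited TPM of TNNC1 and TNNC2 stacked for each library; right, log2 of the TPM ratio of the slow or cardiac gene to the fast gene of each pair, each point a library, with the dotted line at equal TPM. The stacked bars are of similar height at each age while the TNNC1 part grows from 13.0% or less at 1D to 54.7% or more at 28D, and the other ratios decline.

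Set against the whole table, the number of troponin genes called was close to the background where 1D was compared. For 14D against 1D 3 of 6 members were called, 1 higher and 2 lower, and 52.8% of the 11951 tested genes were called (13.6% higher, 39.2% lower). For 28D against 1D 4 of 6 members were called, 1 higher and 3 lower, beside 60.3% of tested genes (16.4% higher, 43.9% lower). For 28D against 14D 1 of 6 members was called, TNNT2, which was lower, beside 1.41% of tested genes (0.544% higher, 0.870% lower). The F test over the 3 ages called the same 4 members as the comparison of 28D with 1D, beside 58.4% of tested genes, and did not call TNNI2 (limma adjusted p = 0.278) or TNNT3 (limma adjusted p = 0.474). After median-ratio rescaling, which called TNNI2 and TNNT3, 24.5% of genes were called higher for 14D against 1D and 28.5% for 28D against 1D. Quantile normalization, which called TNNC2 for 14D against 1D, called 26.2% of genes lower there. In each comparison 4 of 6 members had libraries that did not overlap between the ages, against 61.9% of tested genes for 14D and 1D, 19.8% for 28D and 14D and 68.0% for 28D and 1D. The median log2 change of the members was -0.13 at 14D against 1D, -0.38 at 28D against 14D and -0.54 at 28D against 1D, beside -0.31, -0.068 and -0.38 over the table. The comparisons share libraries, so their calls are not independent of each other.

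**Figure D3:**
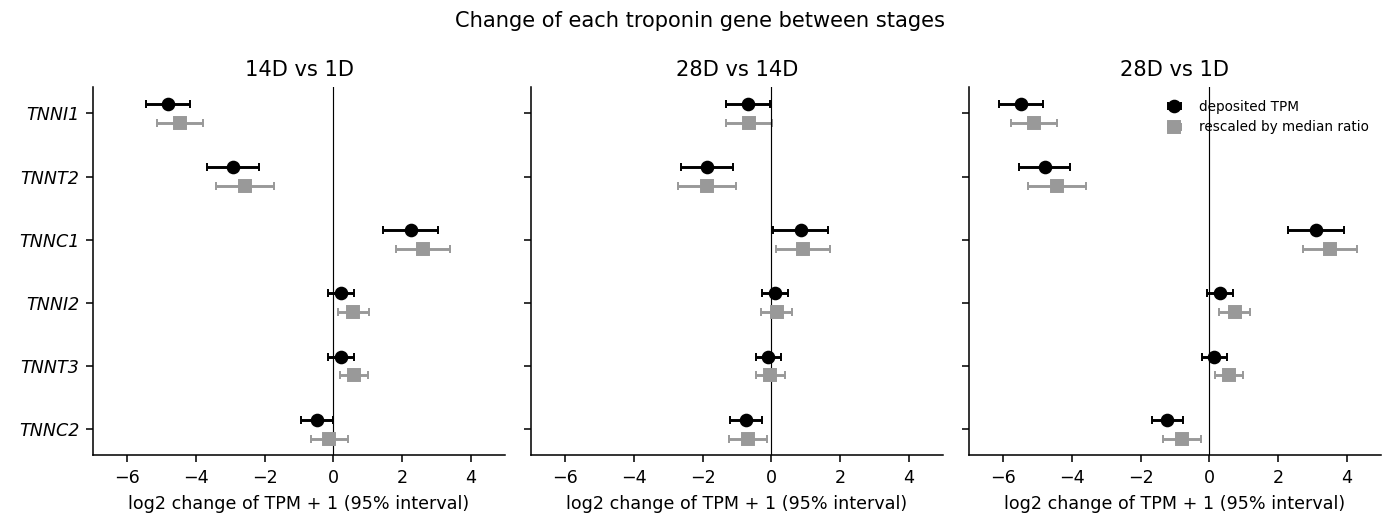
Log2 change of TPM + 1 for each troponin gene in the 3 comparisons, older age over younger, with 95% intervals from limma; black circles are deposited TPM and grey squares TPM rescaled by the median ratio. TNNI1 and TNNT2 lie below 0 and TNNC1 above 0 in both comparisons with 1D under either scaling, while the intervals of TNNI2 and TNNT3 there include 0 only with deposited TPM.

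A further troponin gene, TNNI3, the cardiac troponin I (gene ID 102089657), stood in the lncRNA table although RefSeq calls it protein-coding. It was listed at 51.8, 131 and 308 TPM in the 1D libraries, at 0, 464 and 137 TPM at 14D and at 77.5, 0 and 0 TPM at 28D. Libraries of the same age ranged from 0 to 464 TPM at 14D, and the ages overlapped. A listed 0 can be a failed estimate, so no mean or fold is given for it. Where it was listed above 0 it stood above TNNI1, except in the 1D replicates 1 and 2.

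The identity of the tissue was checked with marker genes. Of 10 skeletal fibre markers 9 were measured, with summed levels of 15314 to 18032 TPM at 1D, 24586 to 30183 TPM at 14D and 19619 to 21042 TPM at 28D, none at 0. Most of each sum was ACTA1, with means of 12345, 23680 and 18063 TPM, and the members differed. ACTA1 and RYR1 were higher in every 28D library than in any 1D library, and DES, ACTN2 and TTN were lower. NEB, CACNA1S, MYOD1 and MYOG overlapped between 1D and 28D. Of 7 cardiac markers 2, TBX5 and HAND2, were in the mRNA table, and they summed to 3.15 to 5.68 TPM at 1D, 1.61 to 3.65 TPM at 14D and 1.39 to 2.496 TPM at 28D. TNNI3, also on the cardiac list, is not in these sums. It stood among the lncRNA rows at 0 to 464 TPM, above the sum of the other 2 wherever it was not 0. Fibroblast markers (5 of 5 measured) were lower at the older ages, as TNNI1 and TNNT2 were, with sums of 5240 to 6640 TPM at 1D, 1181 to 1227 TPM at 14D and 606 to 624 TPM at 28D, none at 0. Red blood cell markers (2 of 5 measured, HBAD and SLC4A1) summed to 259 to 474 TPM at 1D, 26.9 to 47.9 TPM at 14D and 32.0 to 40.9 TPM at 28D, with SLC4A1 overlapping in each pair of ages. Endothelial markers (5 of 5) summed to 297 to 370 TPM at 1D, 415 to 829 TPM at 14D and 575 to 646 TPM at 28D. PECAM1, VWF and TEK were higher in every 14D and 28D library than in any 1D library. CDH5 overlapped in each pair of ages, and KDR overlapped between 1D and 14D. Adipocyte markers (3 of 4) summed to 35.8 to 65.9 TPM at 1D, 103 to 126 TPM at 14D and 175 to 212 TPM at 28D, and most of each sum was ADIPOQ, with means of 43.4, 105 and 176 TPM and no overlap between ages. PLIN1 overlapped in each pair of ages, and CIDEC averaged 1.42, 0.660 and 1.69 TPM. Markers of smooth muscle and pericytes (5 of 6) had sums that overlapped between the ages, at 444 to 786 TPM, but their members differed. The pericyte marker RGS5 averaged 52.5, 193 and 265 TPM at 1D, 14D and 28D with no overlap, while ACTA2 was lower in every 28D library than in any 1D library, with means of 188 TPM at 28D and 314 TPM at 1D. The part of these cell types in the troponin changes was not tested.

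Other proteins of the thin filament were compared in the same fit, and the shares of all tested genes called are those given for the troponins. Of 7 genes of tropomyosin and actin, all tested, 2 rose and 4 fell by 14D against 1D, beside 13.6% of all tested genes called higher and 39.2% called lower. After median-ratio rescaling 2 rose and 2 fell, beside 24.5% of all tested genes called higher and 25.9% called lower. For 28D against 14D 0 passed, beside 1.41% of all tested genes. TPM2, the beta tropomyosin, averaged 322 ± 67.4 TPM at 14D and 2837 ± 253 TPM at 1D (log2 change -3.15, limma adjusted p = 1.84e-06). TPM4 averaged 179 ± 88.6 TPM at 14D and 382 ± 27.7 TPM at 1D (-1.19, limma adjusted p = 0.0037). TPM1, the alpha tropomyosin, rose to 9457 ± 1027 TPM at 14D, against 4539 ± 413 TPM at 1D (1.06, limma adjusted p = 0.000259). ACTA1, the skeletal alpha actin, rose to 23680 ± 3134 TPM at 14D, against 12345 ± 1534 TPM at 1D (0.94, limma adjusted p = 0.00103; n = 3 per age for these genes), but quantile normalization reversed its sign (-0.35, limma adjusted p = 0.241). The median log2 change of this list was -0.66, beside -0.31 for all tested genes.

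Among genes that set thin filament length, 2 tropomodulins moved in opposite directions. Of 12 listed genes 11 were tested, of which 3 rose and 3 fell for 14D against 1D (5 and 2 after median-ratio rescaling). The 54.5% of the list called was close to the 52.8% of all tested genes. For 28D against 14D 2 fell, beside 0.870% of all tested genes, and 0 fell after that rescaling, beside 0.853%. The tropomodulins cap the pointed end of actin filaments. TMOD1 fell to 121 ± 36.1 TPM at 14D, against 1123 ± 130.5 TPM at 1D (log2 change -3.24, limma adjusted p = 4.6e-06), and TMOD4 rose to 395 ± 71.7 TPM at 14D, against 63.9 ± 7.06 TPM at 1D (2.60, limma adjusted p = 4.54e-06). LMOD2, a leiomodin that elongates thin filaments in heart, fell to 10.5 ± 6.65 TPM at 14D, against 120 ± 4.62 TPM at 1D (-3.61, limma adjusted p = 0.000106; -3.00 without 14D replicate 1). KLHL40, a stabiliser of thin filament proteins, fell to 70.3 ± 21.2 TPM at 14D, against 133 ± 21.0 TPM at 1D (-0.94, limma adjusted p = 0.00311; n = 3 per age), a call lost after median-ratio rescaling (-0.58, limma adjusted p = 0.0554). The median of this list was 0.18 at 14D against 1D.

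On the thick filament, 14 of 21 listed genes were tested, of which 3 rose and 6 fell for 14D against 1D (5 and 5 after median-ratio rescaling), with a median of -0.70. The 42.9% of them called lower stood beside 39.2% of all tested genes, and the 21.4% called higher beside 13.6%. For 28D against 1D 4 rose and 8 fell, or 28.6% and 57.1% of them, beside 16.4% and 43.9% of all tested genes. MYL3, a slow and cardiac myosin light chain, had 0.465 ± 0.282 TPM at 14D and 43.8 ± 4.07 TPM at 1D (log2 change -4.95). At that level the pseudocount of 1 shrinks the change. The ratio of means, 94.1 against 36.0 for TNNI1, rests on 14D values under 1 TPM. Outside 1D only 28D replicate 1 reached 1 TPM (1.21 TPM), so MYL3 passed the filter only through the 1D libraries. MYOM3, a protein of the M band, averaged 0.359 ± 0.146 TPM at 14D and 69.7 ± 19.3 TPM at 1D. It was under 1 TPM in every 14D and 28D library, so it passed the filter only through the 1D libraries. Its log2 change was -5.67, and -7.27 and -3.77 with pseudocounts of 0.1 and 5. MYBPC1, the slow myosin-binding protein C, had 2.61, 7.61 and 65.9 TPM in the 14D libraries and 1291, 1642 and 1279 TPM at 1D. Its log2 change was -6.77 (limma adjusted p = 8.32e-05). The change became -7.97 when 14D replicate 3 was left out and -5.86 when 14D replicate 1 was. MYLK4, a myosin light chain kinase, averaged 52.5 ± 8.68 TPM at 14D and 0.595 ± 0.105 TPM at 1D (log2 change 5.06). Every 1D library was under 1 TPM, so MYLK4 passed the filter only through the 14D and 28D libraries. The size of its change depended on the pseudocount (6.24 with 0.1 and 3.35 with 5). The calls counted for this list include MYL3, MYOM3 and MYLK4, so its shares called higher and lower are no result about the list. Levels by library were examined only for the named genes, and other members may have passed the filter in the same way.

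Among genes of calcium release and uptake, which set the calcium that troponin C meets, 14 of 17 were tested, of which 4 rose and 2 fell for 14D against 1D, with a median of 0.35. The 42.9% of the list called was below the 52.8% of all tested genes. After median-ratio rescaling 10 rose and 2 fell, beside 24.5% and 25.9% of all tested genes, and for 28D against 14D 0 were called. SLN, sarcolipin, an inhibitor of the calcium pump, had 225, 1190.2 and 1262 TPM at 14D and 138, 206 and 227 TPM at 1D (log2 change 1.90, limma adjusted p = 0.0136). The ages overlapped, and the call was lost without 14D replicate 2, 14D replicate 3 or 1D replicate 1 (limma adjusted p = 0.0534, 0.0525 and 0.0526). Without 14D replicate 1 the log2 change was 2.71. The low SLN value at 14D was that of replicate 1, the library with the lowest TNNC1 and the highest TNNC2 at that age. Other named genes were mixed in that library. Of the 14D libraries it lay furthest from 1D in LMOD2 (3.22 TPM) and RYR1 (288 TPM). It lay nearest to 1D in TMOD1 (147 TPM) and RYR3 (48.9 TPM). The calcium release channels RYR1 and RYR3 rose by 1.70 and 1.45 (limma adjusted p = 0.00027 and 0.000326), and SRL, the sarcoplasmic reticulum protein sarcalumenin, fell by 1.44 (limma adjusted p = 0.000224).

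Of 20 listed regulators and splicing factors of fibre-type genes 17 were tested, of which 1 rose and 5 fell for 14D against 1D (2 and 5 after median-ratio rescaling), with a median of -0.44. The 35.3% of the list called was below the 52.8% of all tested genes. For 28D against 1D 1 rose and 10 fell, and the 64.7% called was near the 60.3% of all tested genes. By direction, 5.88% of the list was called higher and 58.8% lower, beside 16.4% and 43.9% of all tested genes. CELF2 and CELF1, splicing factors known in chicken and mammals to act on cardiac troponin T transcripts, fell at 14D relative to 1D (log2 changes -1.95 and -1.20, limma adjusted p = 0.000394 and 0.000318). EYA1, a transcription cofactor of muscle precursors, fell by 2.53 (limma adjusted p = 7.56e-05), and MEF2C, a factor of muscle differentiation, fell by 1.58 (limma adjusted p = 0.000179).

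**Figure D4:**
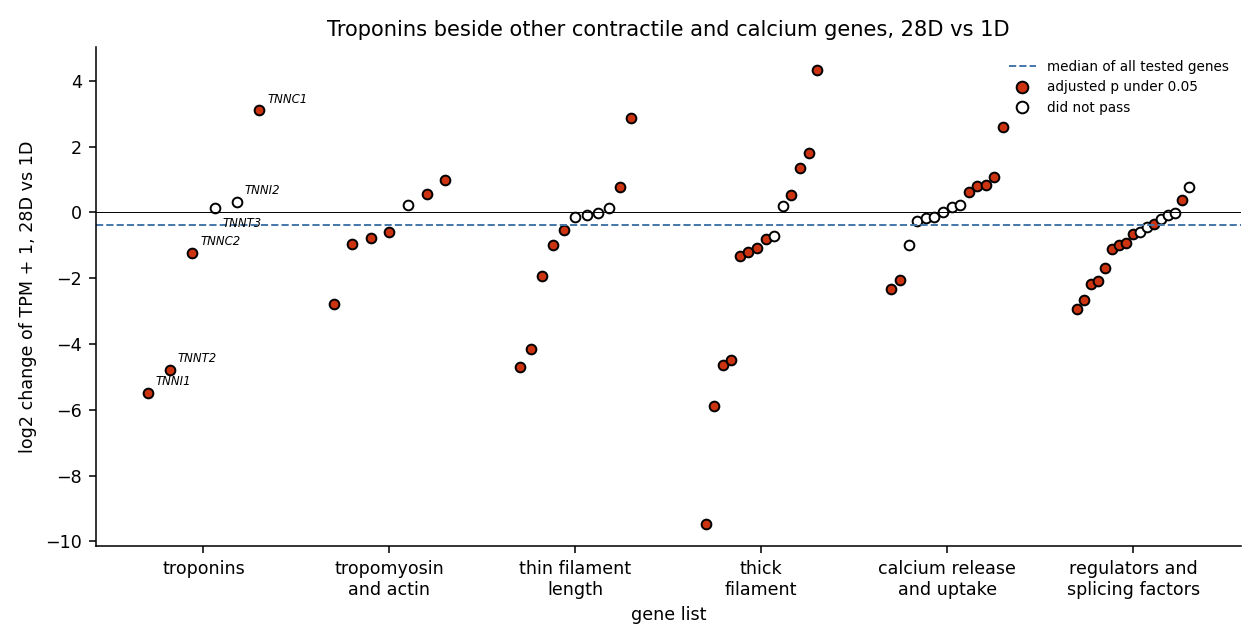
Log2 change of TPM + 1 at 28D against 1D for the 6 troponin genes and for 5 lists of contractile, calcium and regulatory genes; each point is a gene, filled where limma's adjusted p was under 0.05, and the dashed line is the median of all tested genes (-0.38). The troponins run from -5.48 for TNNI1 to 3.10 for TNNC1.

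The genes whose log2(TPM + 1) ran most like each troponin gene over the 9 libraries were found by Pearson correlation among 10277 tested genes with a symbol. The libraries fall into 3 ages, and many genes differ between 1D and the later ages, so a high correlation over so few points is a description. For TNNI1 they included GET4 and GTF2I (r = 0.995 each). For TNNT2 they were SSPN, MN1 and RIOX2 (r = 0.994, 0.993 and 0.993), for TNNC1 PPM1J, SMG5 and C9H3orf70 (r = 0.983, 0.982 and 0.981) and for TNNC2 IGF2, SPTB and RBFOX1 (r = 0.982, 0.979 and 0.970). For TNNI2 they were HEMK1, RFX5 and NPTX2 (r = 0.922, 0.871 and 0.861), and for TNNT3 DYNLRB2, PIK3C2B and FRMD3 (r = 0.894, 0.866 and 0.866). Among the troponins themselves TNNI1 and TNNT2 had r = 0.950, and TNNC1 and TNNC2 had r = -0.891. TNNC1 also ran opposite to TNNI1 and TNNT2 (r = -0.929 and -0.923), and TNNC2 ran with them (r = 0.790 and 0.893). TNNI2 and TNNT3 had r = 0.512.

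In the RefSeq assembly bColLiv1.pat.W.v2, which the authors do not name, TNNI1 and TNNT2 lie close together with LAD1 between them. A link between position and level was not tested. TNNI2 is followed by LSP1 and PRR33, and PRR33 stands close before TNNT3, so these fast genes also share a neighbourhood. TNNC1 lies near NISCH, and TNNC2 near SNX21 and UBE2C. No annotated gene overlaps any of the 6. How reads shared by related troponin genes were assigned is not given in the sources used here.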

How the data were processed

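Libraries of pigeon breast muscle RNA followed Illumina protocols, per the labels. STAR 2.6.0c and Cufflinks 2.1.1 are named in the submitters' processing notes, with no role. The genome build and the method of computing TPM are not given in the sources used here. The deposited TPM tables, made by the authors, of 12918 mRNA and 9158 lncRNA rows had 12 value columns each, and 9 matched a sample title. The other 3 columns match no label and were not used, so comparisons planned with the 2-year group were not run. No 2 libraries were identical. Symbols came from the RefSeq gene table, which held 12256 of the 12918 mRNA identifiers.

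All tests, two-sided, were fitted on log2(TPM + 1), with 1 mean per age, by limma 3.58.1 (lmFit, contrasts.fit and eBayes with an intensity trend) under R 4.3.3. The script was tested on simulated data. Named genes were the 6 troponins, at most 4 members per list (those called at 14D against 1D with the largest change) and the 3 genes most correlated with each troponin, of which 1 is not reported here. The members and lists were chosen with earlier results of these data known. Alternatives were other pseudocounts (0.1 and 5), no filter, 3 rescalings, eBayes without trend, fits of 2 ages alone, a replicate block and leaving out each library.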

Additional observations from a re-analysis of the deposited data

How the results depend on the processing

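The rises of TNNC1 and falls of TNNI1 and TNNT2 at 14D and at 28D against 1D, and the fall of TNNC2 at 28D against 1D, passed under every alternative run; over leaving out each library the log2 changes were 2.04 to 2.66, -5.05 to -4.48 and -3.19 to -2.59 at 14D, and 2.89 to 3.51, -5.72 to -5.15, -5.13 to -4.59 and -1.35 to -1.13 at 28D. Over the other alternatives they were 2.24 to 2.61, -5.06 to -4.03 and -3.05 to -2.48 at 14D, and 2.99 to 3.52, -5.94 to -4.37, -5.43 to -3.53 and -1.82 to -0.80 at 28D, with the ends for TNNI1 and TNNT2 coming from the pseudocounts and those for TNNC2 from quantile normalization and median-ratio rescaling. TNNT2 at 28D against 14D (-2.21 to -1.60 over left-out libraries) lost its call with a pseudocount of 5 (-1.04), quantile normalization (-1.80), the 2 ages alone (-1.88) and the replicate block (-1.88). Median-ratio rescaling called TNNI2 (0.58 at 14D and 0.73 at 28D against 1D) and TNNT3 (0.60 and 0.57). Quantile normalization called TNNC2 at 14D against 1D (-0.99, with -0.67 to -0.30 over left-out libraries), where median-ratio rescaling gave -0.12. The signs of TNNI2 (-0.29 at 28D against 14D, -0.22 at 28D against 1D) and TNNT3 (-0.044 at 28D against 1D) reversed under quantile normalization. TNNT3 at 28D against 14D ran from -0.19 to 0.0073 over left-out libraries. The 169 genes called at 28D against 14D became 108 with a pseudocount of 5, 96 with the replicate block, 21 with the 2 ages alone and 23 to 204 when 1 library was left out (23 or 65 after leaving out 28D replicate 3 or 1, 40 after leaving out 14D replicate 3 and 104 after leaving out 1D replicate 3). Counts of the other comparisons and of the F test stayed within 1.5 times under every alternative run. The causes of these shifts in calls and counts were not tested. The pair shares were recomputed only with 0.1 TPM added to each gene, which could hardly move them, so this is no check on them. Same-numbered libraries of different ages showed no shared deviation over the tested genes (r from -0.07 to 0.05 in 9 pairs), which cannot exclude a pairing. Not every library correlated best with its own number, and the replicate block changed no other call of a troponin gene. TPM holds no depth, which limits what can be said of TNNI1 and TNNT2 near 2 TPM.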
